A study of Pleuronichthys verticalis with 38 samples.

Results

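The comparison described here sets the livers of 6 hornyhead turbot given an intraperitoneal injection of peanut oil (oil controls) against the livers of 7 uninjected fish (seawater controls), 13 of the 38 fish of the study. Members were taken from the sample titles. The hornyhead turbot (Pleuronichthys verticalis) is a flatfish of the sea floor, and the oil was the carrier for mixtures of polybrominated diphenyl ethers (PBDEs) and polychlorinated biphenyls (PCBs). Oil controls received 2 mL oil per kg body mass without contaminant. Seawater controls received no injection, and both groups were sampled at 96 h. The oil group held 4 males, 1 female and 1 immature fish, and the seawater group 5 males and 2 females. The other 25 fish received PBDEs at 0.5 or 5 µg per g body mass (7 and 6 fish) or PCBs at 1 or 10 µg per g (5 and 7 fish), at the same volume of oil. They entered the fit and are shown as a reference for the probes named below. One fish, seawater control 7, is described as a vehicle control in 1 of its labels, although its title and its source both say seawater, and it was kept with the seawater fish.

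A carrier-injected group carries everything that an exposed group carries except the contaminant: capture and handling, the needle, and a dose of dietary-type triglyceride placed in the body cavity. The liver takes up and oxidises or stores fatty acids, and it makes most plasma proteins, among them the acute-phase proteins that rise after injury. The comparison of oil with seawater therefore asks how much of the liver transcript profile differed between injected and uninjected fish before any contaminant was added. Age is not given in the sources used here. In whole liver, fewer cells of a type and less RNA per cell cannot be told apart.

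Each liver was hybridised with Cy3-labelled RNA to 1 custom Agilent array of 14757 non-control probes. Levels are log2 processed signals relative to the 75th percentile of the same array, so that a level of 0 is a signal at that percentile, and 10492 probes well above background on at least 5 of the 38 arrays were tested. The files pair each probe with a contig number only, and no gene name, sequence or function was used here, so the liver identity of the samples was not checked against marker genes. Probes are given by their identifiers, and all other probes by counts and ranges. Named probes were those with the smallest p in each direction, and their p-values were not adjusted for that choice beyond the Benjamini-Hochberg adjustment over all probes.

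The 13 control arrays overlapped between the groups in overall signal. The 75th percentile of log2 signal averaged 6.99 ± 0.31 (SD, n = 6) for the oil group, and the seawater group averaged 6.79 ± 0.26 (SD, n = 7). Between 8243 and 9476 probes were well above background in oil controls and between 7888 and 10355 in seawater controls. Median background intensity lay between 30 and 36 units after oil and between 31.5 and 37 units in seawater. No difference in these measures, nor in the mean correlation with the other 12 control arrays, passed an exact two-sided permutation test adjusted over the 4 measures (adjusted p from 0.821 to 0.902). The smallest p that 6 against 7 arrays allow is 0.00117. Across probes, the median correlation was 0.952 between oil arrays, 0.950 between seawater arrays and 0.948 between arrays of different groups. The fish of a group differed from each other about as much after oil as in seawater, with a median SD per probe of 0.51 and 0.50 log2 units. Oil control 20, the immature fish, stood apart, with a mean correlation of 0.940 against 0.949 to 0.952 for the other oil controls. Without this fish the comparison below gave 0 probes past the threshold and 674 at an unadjusted p under 0.05 in limma.

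In a principal component analysis of the 13 arrays, the groups overlapped on both of the first 2 components. These held 13.7% and 11.3% of the variance. On the first component the oil controls tended to lie higher, from -20.2 to 64.5 against -39.1 to 8.36 in seawater. Oil controls 15, 47, 49 and 20 lay above every seawater fish, while oil controls 45 and 8 lay within the seawater range. Oil control 20 lay at 64.5 on the first component, and the next highest fish was oil control 49, the female of the group, at 25.6. Seawater controls 24 and 46 lay lowest on the second component, at -32.9 and -42.1. Seawater males 35, 50 and 7 lay highest on it, from 27.1 to 38.0. The third component held 10.4% of the variance, and the groups overlapped on it too. Oil controls 15, 45, 47, 49 and 8 lay from 10.4 to 33.6 on the third component, and oil control 20 lay at -30.9. Seawater fish lay from -34.4 to 16.1, and seawater control 22 was the only 1 of them above oil control 8. Seawater control 7 correlated on average at 0.949 with the other seawater controls and at 0.946 with the oil controls. The other seawater controls ranged from 0.943 to 0.955 against the oil controls, so the overall profile did not place seawater control 7 in either group.

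**Figure D1:**
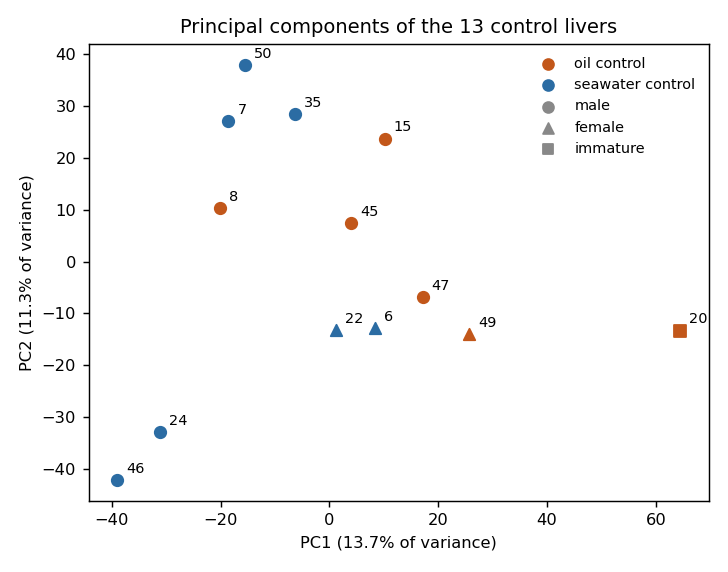
First and second principal component scores (log2 units, axes with their percentage of variance) of the 13 control livers, each point 1 fish with its number, colour for group and symbol for sex. Oil and seawater fish overlap, although oil controls 15, 47, 49 and 20 lie above every seawater fish on the first component. The immature oil control 20 lies alone at 64.5 on it.

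No probe differed between oil and seawater controls at an adjusted p under 0.05. The count was 0 of 10492 (0%) in limma with sex in the model, and the smallest adjusted p was 0.207, shared by 13 probes. An unadjusted p under 0.05 was found at 759 probes (7.23%), against 524.6 expected on average by chance if no probe differed. Probes that vary together widen the spread of such a count. That spread was not computed, so the excess was not tested. Of the 759 probes, 472 (4.5% of all tested) had higher levels after oil and 287 (2.74%) had lower levels. The median difference over all probes was 0.01 log2 units, and 51.5% of all probes had the higher estimate after oil. Each p-value sets the difference against the spread between fish of the same group. That spread was taken from the control and exposed arrays together and moderated across probes. With only the 13 control arrays in the limma fit, 0 probes passed and the smallest adjusted p was 0.0948.

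The differences behind these counts were small at most probes. The median absolute difference was 0.24 log2 units over all probes and 0.79 among the 759. A difference of more than 1 log2 unit, which is 2-fold, was estimated for 394 probes (3.76%), 216 of them higher and 178 lower after oil. The half-width of the 95% interval was, in the median, 0.65 log2 units, or 1.57-fold either way. For 6003 probes (57.2%) the whole interval lay between -1 and 1, so at those probes a 2-fold difference in either direction lay outside the interval of the single probe, without adjustment for the number of probes. At the remaining probes the interval reached beyond a 2-fold difference.

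Abundant transcripts were measured more tightly and held more of the small p-values. With the probes ordered by mean level and split into 4 bins, the dimmest bin (levels from -5.50 to -3.22) had a median half-width of 0.90, and 133 of its 2623 probes (5.07%) were at an unadjusted p under 0.05. In the brightest bin (1.25 to 11.8) the half-width was 0.48 and the count was 286 of 2623 (10.9%). The 2 bins between held 5.83% and 7.13%. Higher levels after oil made up 65.0% of the 286 bright probes and 60.9% of the 133 dim ones.

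**Figure D2:**
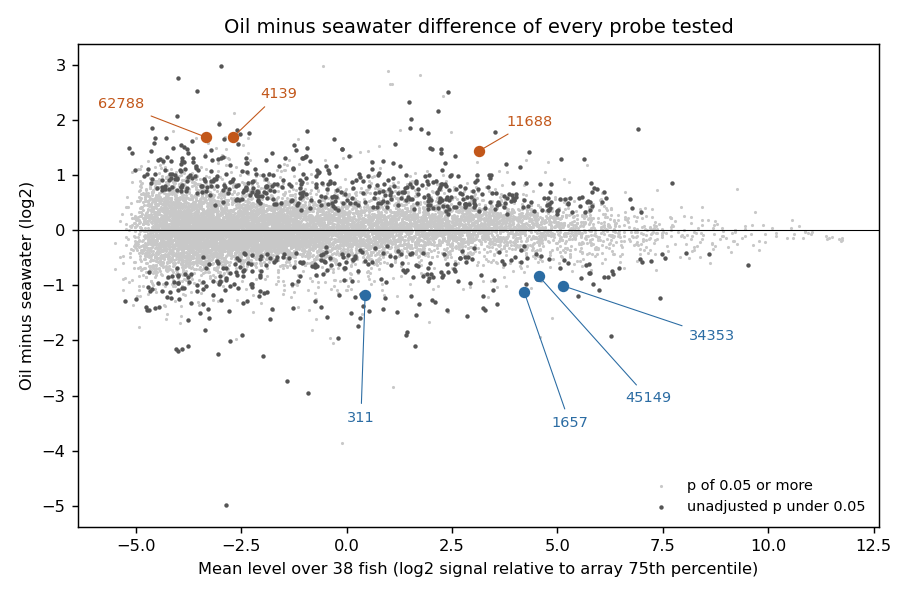
Log2 difference between oil and seawater controls (y axis) against the mean level over 38 fish (x axis, log2 signal relative to the array's 75th percentile) for 10492 probes. Dark points have an unadjusted p under 0.05, and the named probes are coloured by direction and given by the number in their identifier.

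HT_SCCWRP_62788 had the smallest p. Its level was -3.75, -3.19, -2.89, -2.57, -2.43 and -2.05 in oil controls 47, 45, 8, 49, 15 and 20. In seawater controls 46, 7, 24, 6, 35, 50 and 22 it was -5.31, -5.24, -4.93, -4.63, -4.09, -3.96 and -3.62. The ranges met in 1 oil fish, number 47, which lay below the seawater female 22. All 6 oil controls were well above background at this probe and none of the 7 seawater controls was, which occurred at 1 probe of 10492. The seawater level is therefore only a bound. Each seawater array was given its measured level or the level of its dimmest probe well above background, whichever was greater. On that footing the mean after oil was 1.87-fold higher, an estimate with no interval that depends on the floor used. The fitted log2 difference was 1.68 (SE 0.34, limma adjusted p = 0.207). The processed signals behind it were 11.1 to 26.8 intensity units after oil and 2.5 to 8.4 units in seawater, so the probe is dim in every fish. The normexp alternative started from median spot signals, corrected background with an added offset that compresses dim signals, and then used quantile normalization. With these changes together the log2 difference was 0.21 (limma adjusted p = 0.315).

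HT_SCCWRP_11688, a bright probe above 87.1% of all probes tested, had the next smallest p. Its level was 2.89, 3.47, 3.63, 3.73, 3.91 and 4.01 in oil controls 8, 15, 49, 47, 20 and 45. In seawater controls 24, 46, 50, 35, 7, 22 and 6 it was 1.26, 1.49, 2.16, 2.33, 2.45, 2.78 and 3.00. The groups overlapped through the seawater female 6 and the oil male 8, and the other 5 oil fish lay above every seawater fish. The log2 difference was 1.44 (95% interval from 0.79 to 2.08, SE 0.32, limma adjusted p = 0.207), a fold of 2.71. All 13 fish were well above background at this probe, and processed signals ran from 675 to 2621 units after oil and from 212 to 1228 units in seawater.

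Among lower levels after oil, HT_SCCWRP_34353 had the smallest p. Its level was 3.94, 4.14, 4.42, 4.84, 5.17 and 5.22 in oil controls 8, 15, 49, 47, 20 and 45. In seawater controls 22, 24, 6, 46, 35, 50 and 7 it was 4.69, 5.20, 5.44, 5.46, 5.80, 5.99 and 6.00. Oil fish 47, 20 and 45 lay inside the seawater range, and the other 3 lay below every seawater fish. The log2 difference was -1.01 (SE 0.23, limma adjusted p = 0.207). HT_SCCWRP_1657 gave much the same order of fish, from 3.03 in oil control 8 to 4.56 in oil control 20, and from 3.93 in seawater control 22 to 5.30 in seawater control 7. The oil controls averaged 3.69 ± 0.65 (SD, n = 6), and the seawater controls averaged 4.67 ± 0.49 (SD, n = 7). The fitted log2 difference was -1.11 (SE 0.27, limma adjusted p = 0.207). Both probes were bright, above 95.2% and 92.1% of the probes tested, and well above background in all 13 fish.

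The males alone were compared next, because the sexes were unevenly spread and oil control 20 was the only immature control. With 4 oil and 5 seawater males, and the males of all groups in the limma fit, 0 of 10492 probes (0%) passed and the smallest adjusted p was 0.311. An unadjusted p under 0.05 was found at 620 probes (5.91%), of which 317 (3.02%) were higher and 303 (2.89%) lower. Higher levels thus made up 51.1% of these probes, against 62.2% in the fit with all fish. Of the 759 probes of the fit with all fish, 364 were also at an unadjusted p under 0.05 in males with the same sign, which is 48.0% of the one list and 58.7% of the other. Both fits share 9 of the 13 control fish. The typical 95% interval in males had a half-width of 0.76 log2 units.

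HT_SCCWRP_11688 also had the smallest p in males, who differed by 1.59 log2 units (SE 0.34, limma adjusted p = 0.311), and its 4 male oil fish (2.89 to 4.01) lay above all 5 male seawater fish (1.26 to 2.45). HT_SCCWRP_4139 was at -2.18, -1.30, -0.43 and -0.37 in oil males 45, 15, 8 and 47. In seawater males 46, 24, 7, 50 and 35 it was at -4.66, -3.84, -2.90, -2.82 and -2.30. These male groups did not overlap. The seawater female 22, at -2.07, was the highest seawater fish. With the seawater females included, oil male 45, the oil female 49 (-2.68) and the immature fish 20 (-2.50) all lay within the seawater range. The male log2 difference of HT_SCCWRP_4139 was 2.23 (SE 0.50, limma adjusted p = 0.311). With normexp it was 0.70 (limma adjusted p = 0.313). Seawater males 46 and 24 were not well above background at this probe.

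Among lower levels in males, HT_SCCWRP_45149 averaged 4.07 ± 0.42 (SD, n = 4) in oil males and 5.12 ± 0.31 (SD, n = 5) in seawater males. The fitted difference was -1.06 log2 units (SE 0.23, limma adjusted p = 0.311). Its highest oil male, at 4.56, lay below its lowest seawater male, at 4.67. HT_SCCWRP_311 averaged -0.07 ± 0.67 (SD, n = 4) in oil males and 1.39 ± 0.53 (SD, n = 5) in seawater males, which differed by -1.46 log2 units (SE 0.33, limma adjusted p = 0.311). Its male ranges, from -1.01 to 0.49 after oil and from 0.71 to 2.09 in seawater, did not meet either. The probes named from the male fit were picked for their small p in males, so male ranges that do not meet are partly built in. Male ranges that do not meet were found at 226 probes (2.15%), 106 higher (1.01%) and 120 lower (1.14%). With so few males some ranges separate by chance, and that chance share was not computed.

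Over all 13 fish the ranges did not meet at 15 probes (0.143%). A random split of 13 fish into 6 and 7 separates the ranges, in either direction, with probability 0.00117, which is near that share. Ranges that do not meet are therefore given as a description only. At 13 of the 15 probes (0.124%) every oil fish lay above every seawater fish, by mean differences from 0.36 to 2.07 log2 units, and 12 of the 13 were well above background in all fish. Their limma adjusted p lay between 0.207 and 0.75. At 2 probes (0.0191%), chosen for naming after their values were seen, every oil fish lay below every seawater fish. HT_SCCWRP_29983 was at 0.22 to 1.19 after oil and at 1.20, 1.24, 1.51, 1.81, 2.33, 2.95 and 3.66 in seawater controls 22, 24, 6, 46, 50, 35 and 7. The gap between the groups at this probe, 1.19 in oil control 8 against 1.20, was narrow, and seawater control 7 was the highest fish. Its log2 difference was -1.48 (SE 0.40, limma adjusted p = 0.266). HT_SCCWRP_1602 was well above background in 1 of 6 oil and 6 of 7 seawater controls, with levels of -5.71 to -3.44 and -3.22 to -1.37 (log2 difference -1.63, SE 0.65, limma adjusted p = 0.576). With normexp the log2 difference was -0.20 (limma adjusted p = 0.788), and the oil level was mostly at background.

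One probe reached the threshold when a single fish was left out, and it was named for that reason. HT_SCCWRP_9767 was at -3.18, -1.55, -1.48, -1.47, -1.30 and -1.30 in oil controls 20, 15, 47, 49, 8 and 45. In seawater controls 46, 50, 35, 22, 7 and 6 it was between -5.38 and -3.46, and in seawater control 24 it was at -0.07, the highest level of the 13 fish. With all fish the log2 difference was 1.93 (SE 0.53, limma adjusted p = 0.266). Without seawater control 24 it was 2.52 (SE 0.41, limma adjusted p = 0.00652), the only passing result among the 13 fits that each left out 1 control fish. Seawater control 24 lay above every oil fish, so leaving it out necessarily enlarged the difference. The p-value was not adjusted for the choice among these fits. Of the 6 seawater fish then left, 1 was well above background, so this difference is set against a group mostly at background. In males without seawater control 24 the limma adjusted p was 0.00347, likewise not adjusted for the choice of the fish left out. None of the 4 seawater males left (0 of 4) was well above background. With the same kind of floor as for HT_SCCWRP_62788, the mean of the 4 oil males was 4.89-fold higher, again without an interval. With seawater control 24 kept, 6 of 6 oil and 2 of 7 seawater controls were well above background, and with normexp and all fish its log2 difference was 0.32 (limma adjusted p = 0.654).

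**Figure D3:**
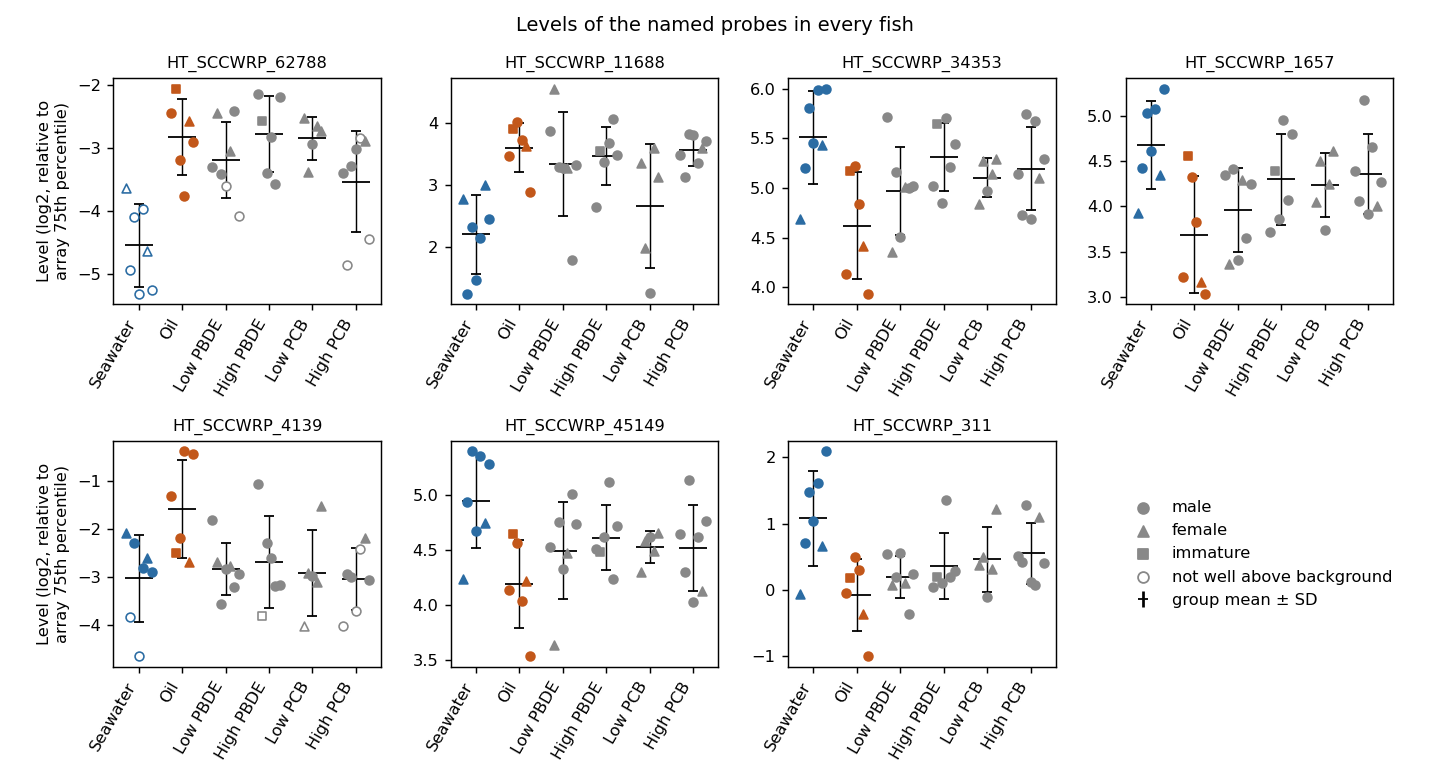
Level (log2 signal relative to the array's 75th percentile) of the 7 probes chosen by smallest p in every fish of the 6 groups, with group means and SD, symbols for sex, and open symbols for fish not well above background. At HT_SCCWRP_62788 all 7 seawater fish are open and all 6 oil fish are filled, and at the 4 lower probes the oil mean is the lowest of the 6 groups.

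The 4 exposed groups had also received the oil, and their levels at these probes can be set beside both control groups. The probes were picked for the distance between oil and seawater controls, so an extreme oil or seawater mean is partly built in, and contrasts with either group share its fish. At HT_SCCWRP_62788 the means were -3.18, -2.77, -2.84 and -3.52 in the low and high PBDE and then the low and high PCB fish, against -2.81 after oil and -4.54 in seawater. It was well above background in 5 of 7, 6 of 6, 5 of 5 and 4 of 7 of these fish. At HT_SCCWRP_11688 the exposed means were 3.34, 3.47, 2.67 and 3.56, against 3.61 after oil and 2.21 in seawater, and the low PCB fish ranged from 1.26 to 3.60. At both probes the 4 exposed means, which are not adjusted for sex, lay above the seawater mean. Among low PCB fish only 1 was male. With sex in the limma model, HT_SCCWRP_11688 after low PCB differed from seawater by only 0.07 log2 units (SE 0.35, adjusted p = 0.987). The fitted differences at this probe were 1.13, 1.42 and 1.46 after low PBDE, high PBDE and high PCB. At HT_SCCWRP_62788 the 4 fitted differences from seawater ran from 1.09 to 1.81, set against a seawater level that is only a bound.

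At the lower probes chosen by smallest p the exposed means lay between the control means. HT_SCCWRP_34353 was at 4.97, 5.31, 5.10 and 5.19 in the same order of groups, against 4.62 after oil and 5.51 in seawater. HT_SCCWRP_1657 was at 3.96, 4.30, 4.23 and 4.35, against 3.69 and 4.67. HT_SCCWRP_4139 differed from both patterns. Its exposed means, from -3.05 to -2.69, were close to the seawater mean of -3.03 and below the oil mean of -1.58. None of the 28 contrasts of these 7 probes between an exposed group and oil passed in limma (smallest adjusted p = 0.439). Of the 28 against seawater 1 passed, HT_SCCWRP_11688 after high PCB (log2 difference 1.46, SE 0.30, adjusted p = 0.0342).

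Arrays were placed on 8 slides, 5 of which held both control groups, so each difference was also read within slides. At HT_SCCWRP_62788 and HT_SCCWRP_11688 the oil fish were higher on all 5 slides, by 0.77 to 2.35 and by 0.44 to 1.89 log2 units. No seawater fish was well above background at HT_SCCWRP_62788, so its differences are set against a bound. At HT_SCCWRP_34353, HT_SCCWRP_1657 and HT_SCCWRP_45149 they were lower on 4 of 5. The exception in each case was slide 3, on which the immature oil control 20 stood against seawater controls 22 and 24, with differences of 0.23, 0.38 and 0.06. On slides 4, 6 and 7 an oil male was paired with a seawater male. In these 3 male pairs HT_SCCWRP_34353 differed by -1.67, -0.76 and -2.06, and HT_SCCWRP_311 by -1.53, -1.12 and -3.10. The slide 7 pair gave the largest difference at both, and it held oil control 8, the lowest fish at both probes, and seawater control 7, the highest. The probes were picked on these arrays, so a common direction over slides is partly built in.

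**Figure D4:**
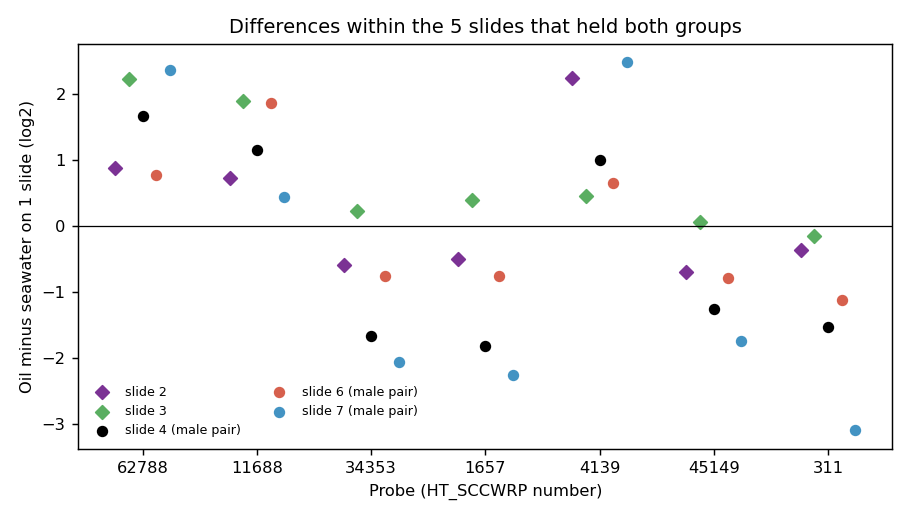
Oil minus seawater difference (log2) on each of the 5 slides that held both groups, for the 7 probes chosen by smallest p, with round symbols for slides that held 1 male of each group. The 3 higher probes lie above 0 on all slides, while 3 of the 4 lower probes lie slightly above 0 on slide 3.

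The fish ranked alike at the lower probes, so these probes were set against each other after group and sex had been removed from all 38 fish. The 4 lower probes varied together: HT_SCCWRP_34353 and HT_SCCWRP_1657 had a Pearson r of 0.876 and a Spearman rho of 0.871 (n = 38, permutation test, adjusted p = 5.25e-05 for each, from the smallest p that 100000 permutations can give). The weakest of their 6 pairs, HT_SCCWRP_45149 with HT_SCCWRP_311, had r = 0.544 and rho = 0.497 (permutation test, adjusted p = 0.00158 and 0.00518). Without the 2 fish most distant from the median at the first-named probe of each pair, these r were 0.863 and 0.506. In the 25 exposed fish alone, which lie outside the oil and seawater contrast, the 6 pairs had r from 0.448 to 0.858. Over all 38 fish, with slide removed as well as group and sex, the 6 pairs had r from 0.585 to 0.956. The lower probes are thus not independent of each other.

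The 3 higher probes showed no correlation with each other that passed. Each of their 3 pairs includes HT_SCCWRP_62788 or HT_SCCWRP_4139, dim probes above only 23.1% and 33.0% of the probes tested. Both were not well above background in some fish, so a low r cannot be told apart from noise near background. HT_SCCWRP_62788 and HT_SCCWRP_11688 had r = -0.09 and rho = -0.07 (n = 38, permutation test, adjusted p = 0.892 and 0.804). HT_SCCWRP_62788 and HT_SCCWRP_4139 had r = 0.157 and rho = 0.153 (adjusted p = 0.676 and 0.727). In all, 7 of 21 pairs passed by Pearson r after Benjamini-Hochberg adjustment. They were the 6 pairs of lower probes, and HT_SCCWRP_11688 with HT_SCCWRP_311, at r = 0.420 and rho = 0.447 (permutation test, adjusted p = 0.0254 and 0.0161). For HT_SCCWRP_11688 with HT_SCCWRP_311, r was 0.398 without the 2 fish most distant from the median at HT_SCCWRP_11688. By Spearman rho HT_SCCWRP_11688 with HT_SCCWRP_1657 passed as well (rho = 0.3875, permutation test, adjusted p = 0.04355). By Pearson r that pair did not pass (r = 0.374, permutation test, adjusted p = 0.0556).

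**Figure D5:**
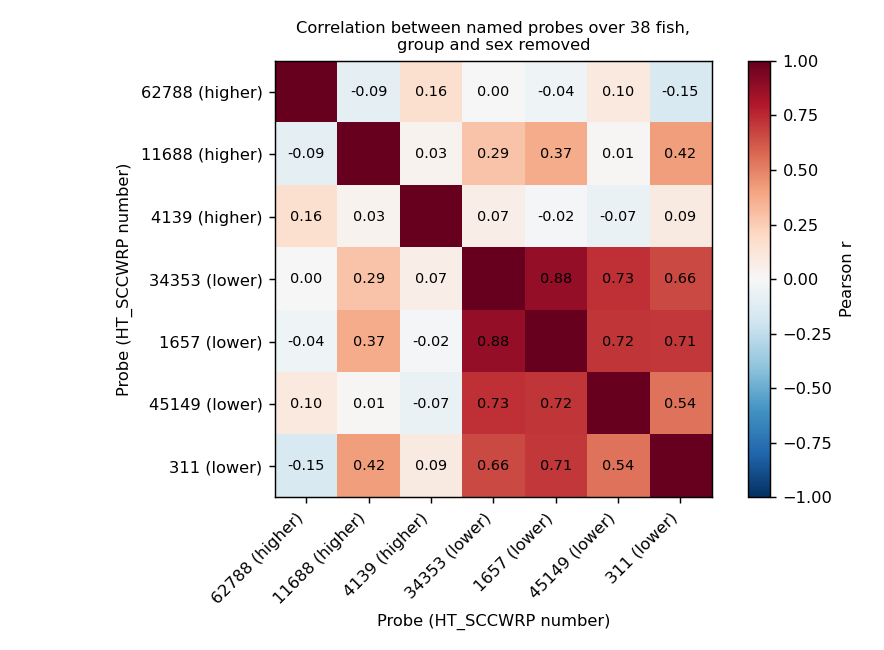
Pearson correlation (colour scale from -1 to 1) between the 7 probes chosen by smallest p over 38 fish, with group and sex removed. The 4 lower probes form a block with r between 0.54 and 0.88, and the 3 higher probes lie between -0.09 and 0.16 among themselves.

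The lower probes were also part of a wider group of covarying probes. Whether some of these probes read the same transcript was not tested, because no sequence was used. HT_SCCWRP_34353 had r over 0.5 with 70 of 10491 other probes (0.667%) across the 38 fish with group and sex removed, and 36 of these 70 were among the 286 other probes with lower levels after oil at an unadjusted p under 0.05, which is 12.6% of that list. None of the 472 probes with higher levels did so. To draw a set without the control fish, probes with r over 0.5 to HT_SCCWRP_34353 were taken from the 25 exposed fish alone, which gave 121 probes. HT_SCCWRP_1657 and HT_SCCWRP_45149, themselves chosen for their difference, were among them. HT_SCCWRP_311 was not, at r = 0.485 in those fish. In these 121, 30 (24.8%) had lower levels after oil at an unadjusted p under 0.05, against 256 of 10370 other probes (2.47%). Higher levels at that p were found at 2 of the 121, against 470 of the 10370. The set was also brighter than the other probes, with a median level of 0.45 against -1.48, and bright probes held more of the small p-values. The set was anchored on a probe chosen for its difference, so these counts are a description with no test.

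The set as a whole showed little difference between the control groups. Its median difference was -0.08 log2 units, against 0.01 in all other probes, and 75 of 121 probes (62.0%) were lower, against 48.3%. The mean level of the set, relative to the 13 control fish, ran from -0.29 in oil control 8 to 0.15 in oil control 20, and from -0.20 in seawater control 24 to 0.38 in seawater control 7. The groups thus overlapped, with means of -0.09 ± 0.16 (SD, n = 6) and 0.07 ± 0.23 (SD, n = 7). The 25 exposed fish, from which the set was drawn for its covariation, ran from -0.75 to 0.44. The SD was 0.39 in low PBDE, 0.27 in high PBDE, 0.22 in low PCB and 0.36 in high PCB fish.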

How the data were processed

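Liver RNA was measured on 1-colour (Cy3) custom Agilent arrays, 1 per fish. Per the file headers, the authors read spot intensity from the scans with Agilent's Feature Extraction software, version 11.5.1.1. Each deposited array file gives a background-subtracted processed signal, and the deposited series table holds the same intensity values rounded, with differences up to 0.497%. RNA was isolated with a Trizol kit, per the labels' protocols.

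From these files, log2 processed signal was taken minus its 75th percentile on that array (15207 non-control spots), and spots of a probe were averaged after removal of outlier flags. Probes well above background on at least 5 arrays (10502), less 10 with an outlier flag and no other spot, were tested. No non-control spot was saturated (0). All 38 arrays entered 1 linear model of group and sex in limma 3.58.1 (R 4.3.3) with trended empirical Bayes moderation and Benjamini-Hochberg adjustment, two-sided, at a threshold of 0.05. A second fit used males only. Array measures were compared with exact permutation tests (scipy 1.17.1). The number of arrays limits the precision. The limma test was checked on simulated data with independent normal noise at each probe, so the check does not cover probes that vary together.

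Named probes were the 2 with the smallest p in each direction in both fits, and 3 more named after their values were seen. The groups, probes and alternatives were chosen with earlier results of these data known. Gene lists drawn up for the study were not used, because the files give no gene names. Alternatives covered scaling, background correction, filters, sex, slide, scan day, weights, the label of seawater control 7 and leaving out each fish. Each sample is a separately numbered fish.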

Additional observations from a re-analysis of the deposited data

Results flagged for a closer look

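Dixon's 95% limit for the gap between an extreme fish and its nearest neighbour was applied to array measures and named probes within each control group. Of 28 such tests 3 passed. Chance gives about 1 in 20, but 2 of the 3 were at HT_SCCWRP_9767, which was named because leaving out seawater control 24 changed its call, so the count is not a fair comparison with that rate. Oil control 20, the immature fish, had the lowest mean correlation with the other control arrays among the oil controls, 0.9399, against 0.949 for the next. The same fish was lowest of the oil controls at HT_SCCWRP_9767, at -3.177, with the next at -1.55. Seawater control 24 was highest of the seawater controls at HT_SCCWRP_9767, at -0.06942, with the next at -3.46 and the lowest at -5.38. The cause of these 3 values was not tested.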

How the results depend on the processing

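The count of probes past the threshold in limma stayed at 0 under every alternative that left no control fish out (other scaling, background correction, filters, sex, slide, scan day, weights, or seawater control 7 moved to the oil group). Leaving out each control fish in turn gave 0 to 1 probes, in the fit with all fish and in that with males. The 1 probe was HT_SCCWRP_9767 without seawater control 24 in both. Counts at an unadjusted p under 0.05 ran from 633 to 860 with each fish left out. They were 949 with array weights, 506 of 5564 among probes well above background on all arrays, and 1003 of 14740 with no filter, where 50.0% were higher after oil. In males they ran from 462 to 748 with each fish left out. All named probes kept their direction, but with seawater control 7 counted as oil HT_SCCWRP_311 was at -0.69 and HT_SCCWRP_29983 at -0.81. The difference in mean correlation between the groups, -0.000245, was 0.00272 in males and ran from -0.00102 to 0.00148 with each fish left out, including 0.000596 without seawater control 22 and 0.000111 without seawater control 35. The cause was not tested. No paired analysis was possible because oil and seawater controls share no fish numbers, which are the only replicate numbers. Pairing by slide was possible, and slide as a fixed term or as a random block gave 0 probes past the threshold, with 691 and 807 at an unadjusted p under 0.05. Dim probes near background, such as HT_SCCWRP_62788, limit the size that can be given to a difference.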
